A study of Mus musculus with 2 samples.

Results

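Ebf1 binding was examined at 7 genes that store fat in adipocytes or release it: Pnpla2, Lipe, Plin1, Cidec, Dgat2, Cd36 and Fabp4. The members are the Ebf1 peaks whose centre lies in a fixed mm9 interval around each gene, 47 of the 34534 peaks in the deposited list. The list comes from 1 chromatin immunoprecipitation library (ChIP-seq), made with an antibody against Ebf1 from mature 3T3-L1 adipocytes 10 days after induction with MDI, a hormonal mixture that turns this mouse fibroblast line into fat cells. The cells were fixed with 1% formaldehyde. The labels also describe a whole cell extract without antibody from the same cells, whose values were not analysed here, so there is no control level and no replicate error for any value below. Apart from MDI, the labels name no genetic change or drug treatment. The cell type could not be checked, since a peak list carries no expression.

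Adipocytes keep triglyceride in a large lipid droplet coated with perilipin 1, the product of Plin1. Lipolysis releases this fat in steps: adipose triglyceride lipase (Pnpla2) removes the first fatty acid, and hormone-sensitive lipase (Lipe) acts on the diglyceride that remains. Cidec lets droplets fuse and grow, Dgat2 carries out the last step of triglyceride synthesis, Cd36 brings fatty acids into the cell, and Fabp4 carries them in the cytosol. Ebf1 is a transcription factor that binds DNA directly and is known for its part in adipocyte differentiation. Its recognition sequence is usually written as a palindrome around CCCNNGGG, where N is any base.

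Promoter sequences of 5 of the 7 genes (Pnpla2, Lipe, Plin1, Cidec and Cd36) were matched by symbol in RefSeq, build GRCm38.p6, with 7 start sites in all. The letters CCCNNGGG, which read the same on both strands, were found in the 250 bases before 3 of these starts, belonging to Plin1 and Cidec. Of all 32851 promoters in the table, 11.8% held them. All 3 stretches with a match are shown. Plin1 and Cidec also had the highest peak scores of the 7 genes, but a link between match and score was not tested. Dgat2 and Fabp4 had no sequence to search. Each stretch shown ends at the base before the annotated start and has the match in capitals. It is written 5′ to 3′ on the gene's strand, which is the minus strand.
Plin1: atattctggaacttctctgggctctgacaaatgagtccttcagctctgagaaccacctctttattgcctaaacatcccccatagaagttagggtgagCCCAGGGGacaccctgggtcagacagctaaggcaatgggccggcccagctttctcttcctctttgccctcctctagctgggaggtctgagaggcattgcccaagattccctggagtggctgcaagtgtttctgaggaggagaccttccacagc
Cidec, start 1: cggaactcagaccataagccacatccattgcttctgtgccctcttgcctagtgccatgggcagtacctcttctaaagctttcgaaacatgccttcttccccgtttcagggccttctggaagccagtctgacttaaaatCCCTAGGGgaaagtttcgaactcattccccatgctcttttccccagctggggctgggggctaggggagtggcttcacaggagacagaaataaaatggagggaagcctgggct
Cidec, start 2: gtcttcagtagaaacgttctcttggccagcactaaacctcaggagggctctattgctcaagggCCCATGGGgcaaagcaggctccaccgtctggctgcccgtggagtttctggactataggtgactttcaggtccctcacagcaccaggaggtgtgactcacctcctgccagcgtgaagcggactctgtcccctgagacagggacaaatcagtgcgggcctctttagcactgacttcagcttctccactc
The first letter of the match lies 153 bases before the Plin1 start, and 112 and 187 bases before starts 1 and 2 of Cidec. A match of letters is not a binding site, and whether a peak covers these bases was not analysed here, because the peaks are on mm9 and these sequences on another build.

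The 7 intervals, 105 to 208 kb long, summed to 895 kb and did not overlap. Peak strength is given as the deposited score, a whole number whose meaning the sources used here do not state. It ran from 3 to 597 over the list, with a median of 13. A peak is called strong when its score is 55 or more, which 10.2% of the list reached. Ebf1 peaks were found at all 7 genes, from 3 at Fabp4 to 10 at Plin1. Strong peaks were found at 6 of the 7: 3 each at Lipe and Cidec, 2 at Plin1, 1 each at Pnpla2, Dgat2 and Cd36, and none at Fabp4. Together 11 of 47 peaks were strong, or 23.4% (exact Clopper-Pearson 95% interval 12.3 to 38.0, for counting error only), against the 10.2% above. The median score of the 47 was 17, with quartiles of 10.0 and 48.5. A 95% interval for this median, taken from the ranked scores, was 13 to 28 and so reached the list's 13. Of the 47, 32 were at or above the median of the list, a level that 50.6% of the list reached by construction. For the 32 peaks on chromosome 7, the median score was 16 against 15 for that whole chromosome. Among those on chromosome 7, 62.5% were at or above 13 against 58.3%, and 21.9% were strong against 10.6%. No test was made, since the genes were chosen with results of this list known and peaks of 1 library are not replicates.

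**Figure D1:**
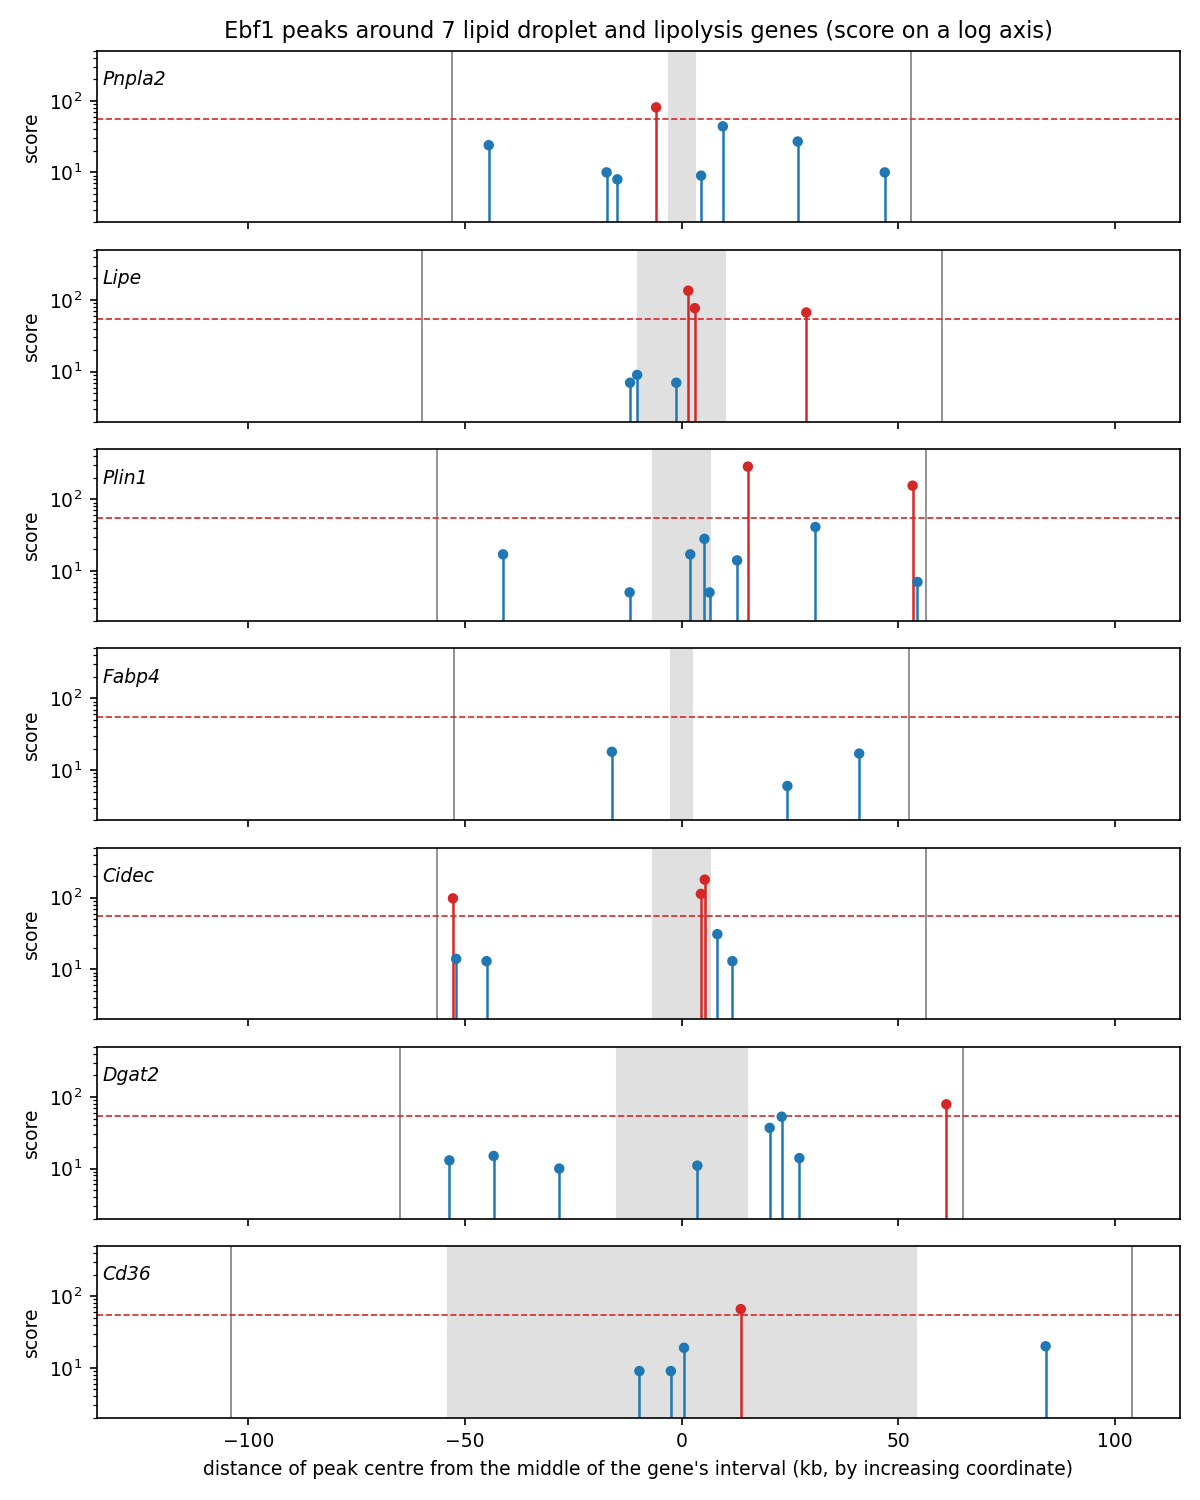
Ebf1 peaks around each gene, with the distance of the peak centre from the middle of the interval in kb on the x axis and the deposited score on a log y axis. Each stem is 1 peak, red where the score is 55 or more (dashed line) and blue otherwise. Grey lines mark the ends of the interval and grey shading the part left after removing 50 kb from each end. The 2 highest stems at Cidec and Lipe stand in the shaded part, while both strong peaks at Plin1 stand to its right.

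The part left when 50 kb is taken from each end of an interval is called the core below and stands in for the gene. No mm9 annotation was used to check its ends, which are rounded to 1 kb, and no gene start is placed. The cores were 5 kb long at Fabp4, 6 kb at Pnpla2, 13 kb at Plin1 and Cidec, 20 kb at Lipe, 30 kb at Dgat2 and 108 kb at Cd36. They held 13 of the 47 peaks, 5 of them strong, and 5 of the 7 genes had at least 1 peak in the core. The cores had 6.67 peaks per 100 kb (Poisson 95% interval 3.55 to 11.4) and the flanks 4.86 (3.36 to 6.79), so these intervals overlapped. Cd36 alone gave 108 of the 195 kb of core but 4 of the 13 core peaks, so the pooled core density depends largely on this gene.

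Pnpla2, which encodes the lipase that starts triglyceride breakdown, had 8 peaks within chromosome 7 from 148591001 to 148697000. None had its centre in the core. The single strong peak, from 148637876 to 148638350, had a score of 81, and its centre lay 2.89 kb below the core start. Only 6.18% of stretches of the same length, laid end to end on chromosomes 1 to 19 and X, held a peak that high, while 10.7% held a strong peak of any height. The peak was 475 bp wide, and its score was 2.31 times the median of 35 for the 1068 peaks of that width in the list. On the other side of the core, a peak that scored 44 lay 6.53 kb above its end, with a weaker peak of score 9 between it and the core. The other 5 peaks scored 24, 10, 8, 27 and 10 in coordinate order. As many as 8 peaks were found in 2.44% of such stretches. In the RefSeq gene order, taken here and below over protein-coding genes only, Rplp2 precedes Pnpla2 and Cracr2b follows it. Peaks outside the core may therefore lie in or near other genes.

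Lipe, the hormone-sensitive lipase gene, held 6 peaks within chromosome 7 from 26114001 to 26234000, and they fell into 2 classes of score. The strong peaks scored 135, 77 and 67, and the weak peaks 7, 9 and 7, with nothing between. The strongest, from 26175151 to 26175925, and the next, from 26176726 to 26177400, both lay inside the core, 11.5 and 13.1 kb from its start, and were separated by 800 bp. The strong peak of score 67, from 26202526 to 26203050, lay 18.8 kb above the core end and had a second value of 0. Of the 3 weak peaks, 2 lay 1.90 and 0.263 kb below the core start and 1 lay inside the core, and they were 200 to 225 bp wide. At least 3 strong peaks were found in 0.797% of stretches of the length of this interval, at least 1 in 11.9%, at least 6 peaks of any score in 6.98%, and a score of 135 or more in 2.45%. Cnfn and Cxcl17 are the protein-coding genes next to Lipe in the RefSeq order.

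Plin1, the gene of the main droplet coat protein in fat cells, held the most peaks, 10 within chromosome 7 from 86816001 to 86929000, and the strongest of all 47. That peak, from 86887426 to 86888175, had a score of 286, which is 22 times the median of the list and ranks 31 among all 34534 peaks. Its centre lay 8.80 kb above the core end. Its score was 2.92 times the median of 98 for peaks of its width, 750 bp. Such a height was found in 0.129% of stretches of the same length.

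The other strong peak at Plin1, from 86925401 to 86926250, scored 155 and lay 46.8 kb above the core end and near the edge of the interval. Inside the core the peaks scored 17, 28 and 5, the weakest of them 0.0495 kb from the core end. The remaining 5 peaks scored 17, 5, 14, 41 and 7. The interval therefore combined peaks below the strong threshold over the core with strong peaks on 1 side only. At least 10 peaks were found in 1.34% of stretches of this length, at least 2 strong ones in 2.74% and at least 1 in 11.2%. In the RefSeq order Kif7 precedes Plin1, and Pex11a, Wdr93 and Mesp1 follow it, so the strong peaks on the side of rising coordinates cannot be given to 1 gene.

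Cidec, whose product sits where droplets touch and promotes their fusion, had 7 peaks within chromosome 6 from 113324001 to 113437000. Like Lipe, it had 2 strong peaks inside its core. The peaks from 113384551 to 113385350 and from 113385551 to 113386150 scored 113 and 179 and were separated by 200 bp. Their centres lay 2.05 and 1.15 kb inside the core end. The score of 179 was 2.52 times the median of 71 for peaks of 600 bp, whereas the wider neighbour, at 800 bp, was close to the median of 117 for its width. A peak with a score of 31 followed 1.75 kb above the core end and a peak with a score of 13 at 5.23 kb.

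At the far end of the Cidec interval, a strong peak of score 98 from 113327401 to 113328025 lay 46.3 kb below the core start. It was followed by peaks of scores 14 and 13, and then by 48925 bp without a peak up to the strong pair. All 7 Cidec peaks were at or above the median score of 13, which held for none of the other genes. At least 3 strong peaks were found in 0.763% of stretches of this length, at least 1 in 11.2%, at least 7 peaks in 4.1%, and a score of 179 or more in 0.96%. Rpusd3 and Jagn1 are the neighbours of Cidec in the RefSeq order.

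Dgat2, which encodes an enzyme of the last step of triglyceride synthesis, had 8 peaks within chromosome 7 from 106252001 to 106382000. The core held 1 of them, with a score of 11. Its strong peak, from 106377801 to 106378425, scored 79 and lay 46.1 kb above the core end, 3.89 kb inside the edge of the interval. Closer to the core, 3 peaks scored 37, 53 and 14 at 5.34, 8.11 and 12.2 kb above its end. The middle one, from 106339851 to 106340375, came just short of the strong threshold of 55. Below the core the peaks scored 13, 15 and 10. A strong peak was found in 12.6% of stretches of this length, 8 or more peaks in 3.76%, and a score of 79 or more in 7.75%. Mogat2, another acyltransferase gene of the pathway, follows Dgat2 in the RefSeq order, and Uvrag precedes it.

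Cd36, the gene of the fatty acid receptor at the cell surface, lies in the longest interval, chromosome 5 from 17237001 to 17445000, and had 5 peaks. The core held 4 of them, with scores of 9, 9, 19 and 66. The strong peak, from 17354376 to 17354950, lay 67.7 kb from the core start and 40.3 kb from its end, away from both ends of the core. The last peak, 30.0 kb above the core end, scored 20. No further peak was listed for 256 kb below the interval or 378 kb above it. In the RefSeq order Sema3c precedes Cd36 and Gnat3 follows it. A strong peak was found in 18.2% of stretches of this length, 5 or more peaks in 21.2% and a score of 66 or more in 14.7%, so neither the count nor the height at Cd36 was rare in the list.

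Fabp4, the adipocyte fatty acid binding protein gene and a standard marker of fat cells, had the fewest peaks of the 7 genes. Its highest score and its summed score were also the lowest, but its median score was not. The 3 peaks within chromosome 3 from 10154001 to 10259000 scored 18, 6 and 17, and none lay in the core. The nearest, from 10190226 to 10190575, was 13.6 kb below the core start and had a second value of 0. The other 2 lay 21.9 and 38.5 kb above the core end. At least 3 peaks were found in 18.7% of stretches of this length, a score of 18 or more in 26.4%, and a strong peak in 10.6%. A peak below the unknown threshold of the caller would not be listed, so the list does not show that Ebf1 is absent from the gene. Other genes of its family are next to it in the RefSeq order, with Fabp5, Pmp2 and Fabp9 on one side and Fabp12 on the other.

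**Figure D2:**
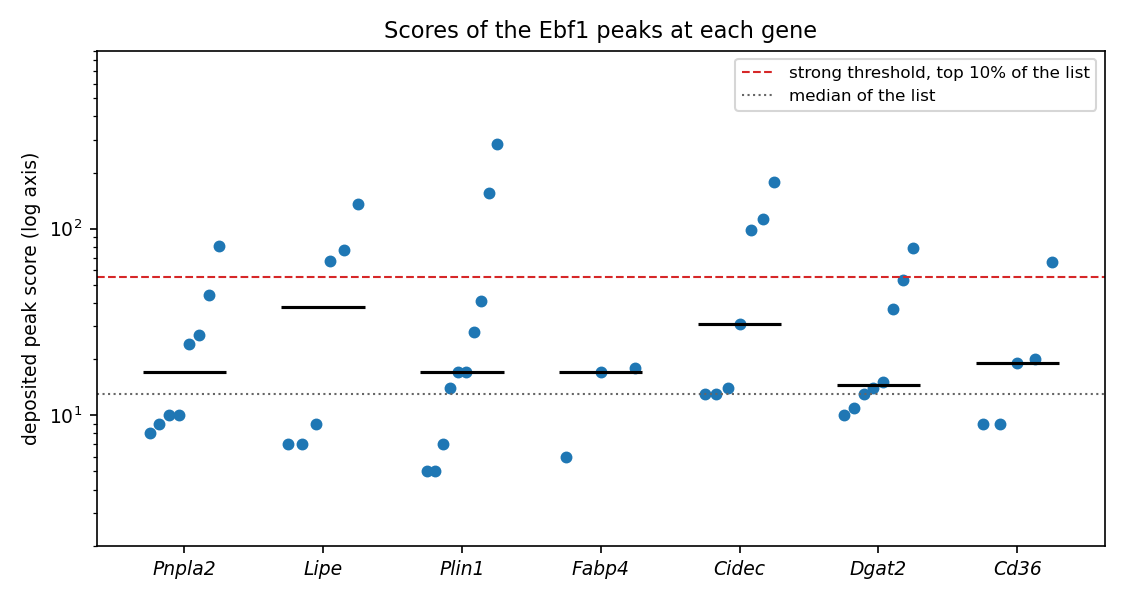
Deposited score on a log axis for each Ebf1 peak (points) at the 7 genes, with the gene's median as a black bar, the median of the list as a dotted line at 13 and the strong threshold as a dashed line at 55. Lipe and Cidec have 3 points above the dashed line, Plin1 has the highest point at 286, and all 3 points of Fabp4 lie at or below 18.

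By highest score the genes ran from Plin1 (286) through Cidec (179), Lipe (135), Pnpla2 (81), Dgat2 (79) and Cd36 (66) to Fabp4 (18). By summed score Plin1 came first with 575, followed by Cidec with 461 and Lipe with 302. Dgat2 with 232 was then ahead of Pnpla2 with 213, and Cd36 with 123 and Fabp4 with 41 came last. By median score Lipe was first at 38 and Cidec next at 31, while Pnpla2, Plin1 and Fabp4 shared a median of 17. The first 2 orders differed only in the places of Pnpla2 and Dgat2, and the order by median was different. Without replicates, whether neighbouring genes in these orders differ cannot be told. At each gene the strongest peak carried between 34.1% (Dgat2) and 53.7% (Cd36) of the summed score.

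The intervals held more peaks per 100 kb than the rest of their chromosomes. Their density was 5.25 peaks per 100 kb (Poisson 95% interval 3.86 to 6.98), 3.96 times the 1.33 of chromosomes 1 to 19 and X. Against the rest of its own chromosome, density was 8.67 times at Plin1, 7.38 at Pnpla2, 6.02 at Dgat2, 4.88 at Lipe, 3.35 at Cidec, 3.14 at Fabp4 and 1.43 at Cd36. For Fabp4 and Cd36 the counting interval of the gene's own density, 0.589 to 8.35 and 0.781 to 5.61 per 100 kb, included the chromosome's 0.909 and 1.68. Such intervals take peaks as independent and are too narrow where peaks cluster, so they are not a test for any of the genes. Between 34.7% and 50.1% of stretches of these lengths held no peak. These backgrounds include assembly gaps and gene-poor sequence, and the part that gene density has in the difference was not tested.

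The 2 adjoining stretches of the same length give a closer background. Together these 1790 kb held 40 peaks, or 2.23 per 100 kb, so the intervals were 2.35 times as dense. Of the 40, 7 were strong, or 17.5% (exact 95% interval 7.34 to 32.8), which overlaps the share within the intervals. Plin1 had 10 peaks against 0 and 2 in its adjoining stretches, Dgat2 8 against 0 and 3, Cidec 7 against 1 and 3, Cd36 5 against 0 and 0, and Pnpla2 8 against 4 and 5. Lipe, with 6, matched the 6 on its lower side and had 2 on its upper side. Fabp4 was the exception, with 3 peaks against 5 and 9.

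**Figure D3:**
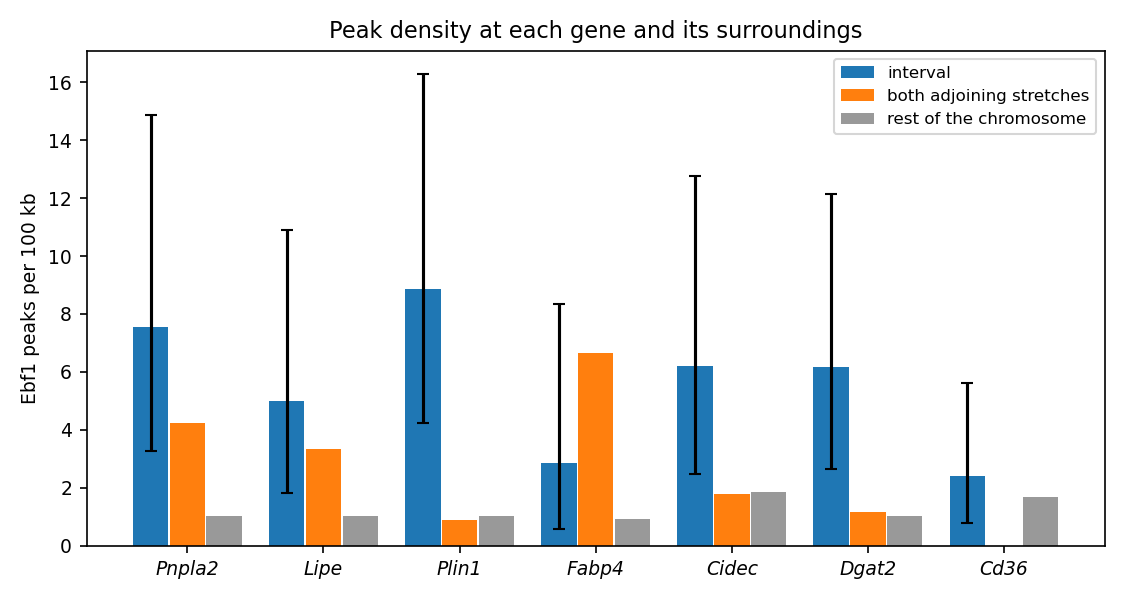
Ebf1 peaks per 100 kb in each gene's interval (blue, with exact Poisson 95% intervals for counting error as bars), in the 2 adjoining stretches of the same length (orange) and in the rest of the chromosome (grey). Blue exceeds orange at 6 genes and falls below it at Fabp4, and Cd36 has no orange bar because no peak was listed in its adjoining stretches.

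Where an interval ends sets which peaks are counted. Just inside the lower edge of Cidec lay the strong peak of score 98, at 3.71 kb. The nearest peak outside that edge, with a score of 69, was 66.0 kb away from it. Outside the upper edge of Cidec the nearest peak scored 41, at 21.3 kb. Just outside the upper edge of Pnpla2, at 7.39 kb, lay a peak scoring 98, from 148704076 to 148704700, higher than any peak inside. Fabp4 had a peak of score 5 only 0.851 kb outside its upper edge. The nearest outside peaks at Plin1 scored 27 and 26, at 151 and 83.9 kb. By comparison, at Lipe they scored 18 and 13, at 7.25 and 28.7 kb, and at Dgat2 13 and 11, at 135 and 122 kb.

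Peak width and the second value were not used to choose the peaks. The 47 peaks were 200 to 850 bp wide with a median of 375 bp, against 300 bp for the list, and 9 of them had the narrowest width of 200 bp, which 20.3% of the list shared. The 32 on chromosome 7 had a median width of 350 bp, equal to that of the whole chromosome. Against peaks of the same width, 29 of the 47 scored above the median, 4 at it and 14 below it, where 43.8% of the list scored above. Wider peaks tend to score higher throughout the list, so width and score are not separate evidence.

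The second value is another whole number deposited for each peak, from 0 to 15, and its meaning is not stated either. It was above 0 at 34 of the 47 peaks, or 72.3%, against 70.2% of the list. A second value of 5 or more was found at 8 of the 47, or 17.0% (exact 95% interval 7.65 to 30.8), against 5.47% of the list. These 8 lay at Plin1, Cidec, Lipe and Cd36, and 7 of them were strong peaks. The strongest Plin1 peak had a second value of 10, which 0.159% of the list reached, and the Cidec peak of score 179 had 9. No peak at Pnpla2, Dgat2 or Fabp4 had a second value above 3. Among the strong peaks the second values were 10 and 7 at Plin1, 7, 7 and 9 at Cidec, 3, 5 and 0 at Lipe, 5 at Cd36, and 2 each at Pnpla2 and Dgat2. In the list the median score rises with the second value, from 10 at 0 to 114.5 at 10, so high values of both columns tend to fall on the same peaks.

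**Figure D4:**
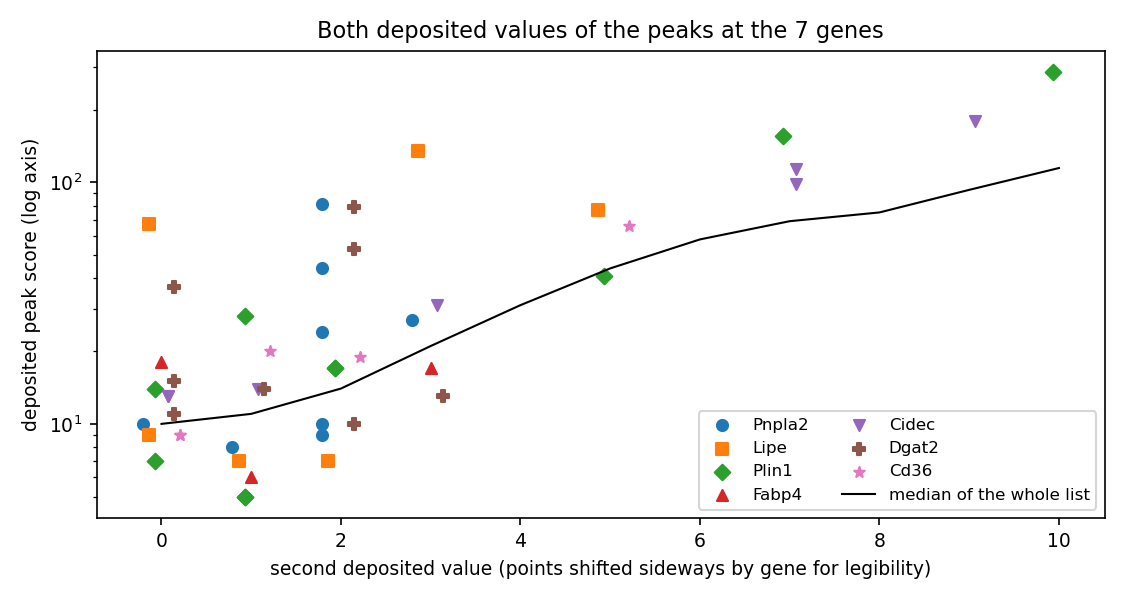
Deposited score on a log axis against the second deposited value for the 47 peaks, marked by gene and shifted sideways for legibility, with the median score of the whole list at each second value as a line. The 2 strong Plin1 peaks and the 3 strong Cidec peaks sit at second values of 7 to 10, the strong peaks of Lipe at 0 to 5, that of Cd36 at 5 and those of Pnpla2 and Dgat2 at 2.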

How the data were processed

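The members and lists were chosen with earlier results of these data known. The authors deposited peak positions with a score and a second score per peak, in a list without a header, so neither column was treated as a read count. Per the submitters' processing notes, SAMtools was used and the genome build is mm9. No aligner, peak caller, threshold, depth or use of the whole cell extract is given in the sources used here. Per the labels' protocols, ligation products of 275 to 700 bp were amplified in 18 PCR cycles. All peak limits fit a 25 bp grid that starts at base 1, and both ends were counted in. A peak belonged to a gene when the mean of its start and end lay in the gene's interval. All members are given, with positions for every strong peak and for the highest peak of each gene. Densities used the length between the outermost peaks of each chromosome. Poisson and Clopper-Pearson 95% intervals cover counting error only and take peaks as independent. Clustering of peaks, which would make them too narrow, was not allowed for. Interval counting was tested on simulated positions. The gene table and promoters belong to GRCm38.p6, another build, and served for the order of protein-coding genes, symbols and sequence. Peak sequences were therefore not read and other genes of the pathway not placed. A longer form of the Ebf motif, also searched, had no match in the 7 promoters and was in 0.779% of all promoters, so no match would be usual for so few. Software was matplotlib 3.10.9, scipy 1.17.1, pandas 2.3.3, numpy 2.4.6 and Python 3.11.15.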

Additional observations from a re-analysis of the deposited data

How the results depend on the processing

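Of 59 alternative values, 45 stayed within the limits set for them. These limits were 1.5 times for counts and the counting interval for the density ratio and the median score. Values were sorted only into inside or outside the limits, and reversal was not assessed. Strong peaks numbered 6 of 47 (12.8%) when strong meant the top 5% of the list, which ties made 5.04%, and 18 (38.3%) when it meant the top 25%, or 25.7% with ties. These counts move by construction. The density ratio of 3.96 was 5.27 with only peaks at or above the median score, just outside its limits of 2.91 to 5.26. Within these limits, it was 4.70 with 25 kb taken off each end of the intervals and 5.02 in the cores. It was 4.20 when windows of 1 Mb holding at least 50 peaks were dropped from the background. Leaving out each gene in turn gave 3.56 (without Plin1) to 4.60 (without Cd36), and the median score stayed at 17 each time. The 47 peaks were unchanged with any overlap in place of the centre, or with peaks within 100 bp merged. Merging could not join any of them, since the smallest gap between members was 200 bp. Counts of single genes changed by over 1.5 times in 11 of 35 alternatives, all of them shorter intervals or the median score threshold. No paired analysis was possible because there is 1 peak list, and no replicate could be left out. As the depth is unknown, how far the weak peaks rise above background is unknown too.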

Other observations

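Outside the intervals but within 500 kb of them, the strongest Ebf1 peaks did not follow the order inside. Near Dgat2 the highest, at 389, was on chromosome 7 from 105816351 to 105817275, the fifth of the whole list, 435 kb below the interval and 4.92 times the highest score inside it. Near Cidec a peak with a score of 285 and a second value of 9 lay on chromosome 6 from 113472051 to 113472750, only 35.4 kb above the interval and 1.59 times its highest. At Lipe the highest nearby score, 143, was close to the 135 inside, and at Pnpla2 it was 100 against 81.

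Near Fabp4, whose own peaks scored at most 18, 21 peaks lay within that distance and 1 was strong, with a score of 62, 34.1 kb above the interval on chromosome 3 from 10292801 to 10293375. At Plin1 the strongest peak inside was well above its surroundings, at 286 against 140. Cd36 stood in the emptiest stretch, with 4 peaks within 500 kb and none above a score of 14, against 66 inside. Which of these genes, if any, such distant peaks act on was not analysed here.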
